A study of Tupaia belangeri chinensis with 12 samples.

Results

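The FGF receptors FGFR1, FGFR2 and FGFR3, the Sprouty feedback inhibitors SPRY1, SPRY2 and SPRY4, and the ERK-induced transcription factors ETV4 and ETV5 were followed across cortical layers in fetuses of the Chinese tree shrew (Tupaia belangeri chinensis), a small mammal close to the primates. The 8 genes were taken by their symbols in the deposited tables. Of these, 7 were found, each under 1 gene ID out of 81414, and 6 passed the filter on low values that 14101 genes passed. SPRY1 was not analysed here, and SPRY4 lay below the filter.

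The 12 RNA-seq libraries comprise 3 each of the cortical plate (CP), where neurons settle, the outer subventricular zone (OSVZ), the inner subventricular zone (ISVZ) and the ventricular zone (VZ), which lines the ventricle. Every library is from fetal cortex that the labels place at embryonic day 37 (the names of the deposited tables carry an earlier day), and the labels give no genotype, treatment or sex. Layers were cut by laser from Nissl-stained frozen sections, and poly(A) RNA was sequenced. The labels tie no library to an animal, so the replicates may be technical, and each p-value reflects only how far these libraries differ.

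FGF receptors are tyrosine kinases at the cell surface that bind FGF ligands together with heparan sulfate and pass the signal through adaptors to the RAS-ERK cascade. Active ERK raises the transcription of ETV4 and ETV5, which act as downstream effectors, and of the Sprouty genes, whose proteins dampen the same cascade. In the mouse cortex the receptors are carried by radial glia of the ventricular zone, where FGF signalling is known to help keep cells as progenitors.

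Levels are given in scaled FPKM, fragment counts divided by transcript length and library total, after a further scaling of each library, so levels of different genes are compared per length. FPKM does not give the read depth. The summed FPKM of a library ranged from 244666 to 276629, and the deposited bounds of expressed genes had a median half-width of 6.77% to 11.1%. PAX6, a marker of radial glia, followed the labels, at 0.188 to 0.761 in the CP libraries against 21.1 to 36.0 in the VZ libraries.

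All 3 receptors were lowest in CP and highest in VZ. FGFR1 (TSDBGID.14527, chromosome 20, 27545355 to 27601567 in the deposited tables, whose build is not given in the sources used here) measured 2.11, 2.97 and 2.95 scaled FPKM in the CP libraries, 6.23, 6.85 and 9.08 in the OSVZ libraries, 9.45, 4.59 and 8.04 in the ISVZ libraries, and 13.0, 16.8 and 17.6 in the VZ libraries. The CP libraries were below all others and the VZ libraries above all others, while OSVZ and ISVZ overlapped. FGFR1 is the receptor with the widest expression in the developing brain.

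FGFR2 (TSDBGID.9154, chromosome 15, 33510517 to 33662148) is known from mouse radial glia. It measured 1.05, 1.34 and 1.57 scaled FPKM in the CP libraries, 7.35, 7.47 and 5.64 in OSVZ, 13.1, 9.82 and 12.3 in ISVZ, and 28.4, 32.2 and 32.3 in VZ. No layer overlapped another, and the order CP, OSVZ, ISVZ, VZ held for every library.

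FGFR3 (TSDBGID.25832, chromosome 9, 35985857 to 36013559) is later a marker of astrocytes. It measured 0.829, 0.540 and 0.252 scaled FPKM in the CP libraries, 5.83, 5.79 and 3.91 in OSVZ, 14.9, 6.76 and 4.97 in ISVZ, and 27.6, 34.0 and 16.9 in VZ. It reached 1 in 9 libraries, none of them CP. ISVZ 1 stood above the other ISVZ libraries and VZ 3 below the other VZ libraries, and ISVZ overlapped OSVZ but not VZ. The annotated span of FGFR3 shares 6182 bases, 22.3% of its length, with LETM1li1, which averaged 14.6 scaled FPKM in CP and 8.29 in VZ, the opposite order. The use of strand is not stated, so reads in the shared stretch could not be assigned with certainty.

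**Figure D1:**
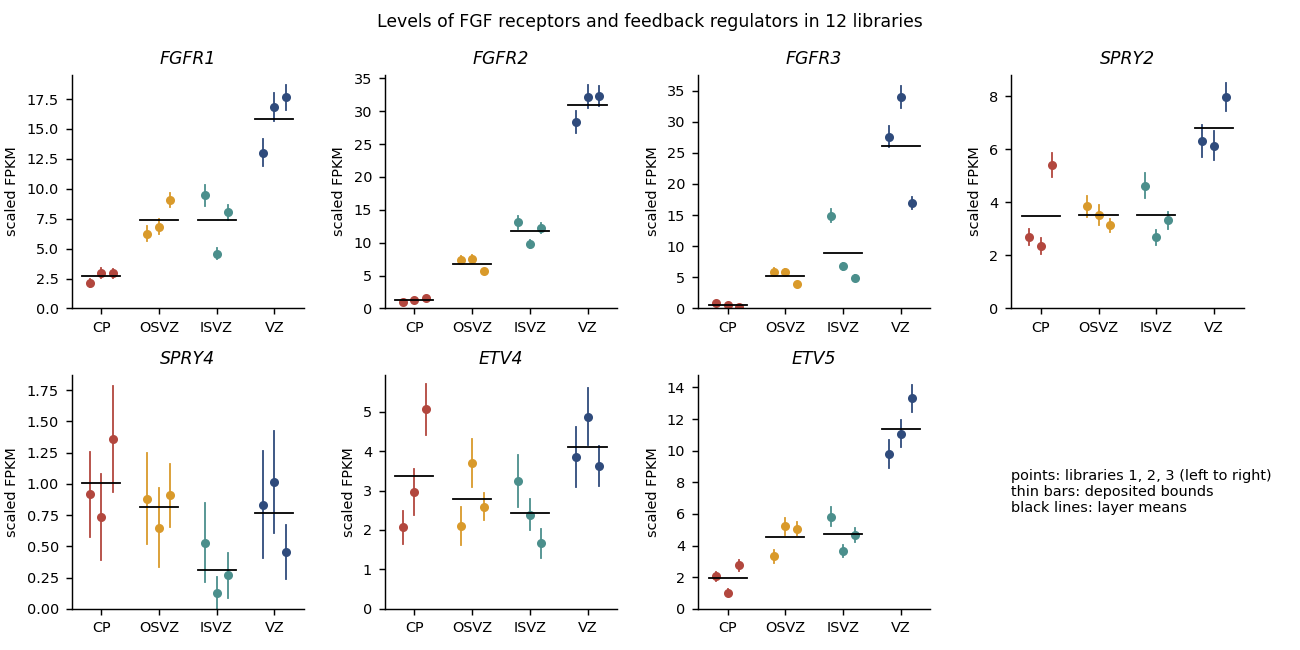
Levels of the 7 members found, in scaled FPKM on linear axes that start at 0, by layer. Points are libraries 1, 2 and 3 from left to right, thin bars the deposited bounds and black lines the layer means. The receptors and ETV5 are lowest in CP and highest in VZ, with VZ means of 15.8 for FGFR1, 31.0 for FGFR2, 26.1 for FGFR3 and 11.4 for ETV5, while ETV4 overlaps between layers other than ISVZ and VZ, and SPRY4 has layer means of 0.308 to 1.00.

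In CP, the receptors and ETV5 were lower than in the progenitor layers, and SPRY2 and ETV4 did not pass the test. With limma and Benjamini-Hochberg adjustment over all genes tested, at a threshold of 0.05, 4 of the 6 tested members were lower in CP than in the mean of OSVZ, ISVZ and VZ and 0 were higher, beside 28.7% of all genes tested that were called lower. For the same 4 members the CP libraries did not overlap the other 9, which held in that direction for 19.3% of all genes. The log2 difference, on the log2(scaled FPKM + 1) scale that understates changes of low genes, was -1.51 ± 0.18 (SE) for FGFR1 (adjusted p = 4.46e-05, limma), 2.84-fold lower. It was -2.66 ± 0.11 for FGFR2 (adjusted p = 3.58e-08, limma) and -2.89 ± 0.28 for FGFR3 (adjusted p = 7.96e-06, limma). These are 6.34-fold and 7.42-fold lower on that scale, with 3 of 3 CP libraries below every other library. FGFR2 averaged 1.32 ± 0.260 scaled FPKM in CP and 31.0 ± 2.23 in VZ (SD, n = 3 each).

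In bulk tissue, fewer cells of a type and less RNA per cell cannot be told apart. All 7 radial glia markers listed were lower in CP, and their summed level was 26.2 to 44.8 scaled FPKM in the CP libraries, 202 to 216 in OSVZ, 303 to 397 in ISVZ and 736 to 862 in VZ. The 5 astrocyte markers summed to 1.01 to 3.25 in CP, 9.71 to 36.1 in OSVZ, 26.7 to 59.7 in ISVZ and 118 to 202 in VZ, and no marker of either list was at 0 in all libraries of a layer. Of the 8 neuronal markers, 6 were higher in CP and 0 lower, and they summed to 2408 to 2699 in CP against 418 to 634 in VZ. STMN2, which averaged 1809 in CP and 389 in VZ, made up most of that sum, and BCL11B, at 10.85 in CP and 14.8 in VZ, did not pass. Their part in the receptor differences was not tested.

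Among the progenitor layers, members passed the test against VZ and not between OSVZ and ISVZ. In OSVZ against VZ, 5 of the 6 tested members were lower, beside 16.2% of all genes tested. FGFR1 differed by -1.01 ± 0.23 (adjusted p = 0.00675, limma), FGFR2 by -2.04 ± 0.14 (adjusted p = 4.22e-05, limma) and FGFR3 by -2.10 ± 0.34 (adjusted p = 0.00128, limma), on the log2 scale. In ISVZ against VZ, 4 of the 6 were lower, beside 7.18% of all genes tested, and the ISVZ libraries lay below the VZ libraries for 6 of 6, beside 17.3% of all genes. The log2 differences were -1.05 ± 0.23 for FGFR1 (adjusted p = 0.0160, limma), -1.34 ± 0.14 for FGFR2 (adjusted p = 0.00138, limma) and -1.53 ± 0.34 for FGFR3 (adjusted p = 0.0185, limma). Of these, FGFR2 held in every alternative run. FGFR1 lost its call without ISVZ 2 (adjusted p = 0.05003), VZ 2 (0.0762) or VZ 3 (0.0665), and FGFR3 without ISVZ 2 (0.0804), ISVZ 3 (0.0553) or VZ 2 (0.0959), all by limma.

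In OSVZ against ISVZ, 0 of the 6 tested members passed by limma, beside 0.603% of all genes in either direction. FGFR2 had the lowest adjusted p of the 6, 0.0508 by limma. Its log2 difference was -0.70 (95% interval -1.01 to -0.40), and its OSVZ libraries were all below the ISVZ libraries. The 95% intervals of the difference were -0.46 to 0.53 for FGFR1 and -1.31 to 0.19 for FGFR3. In CP against OSVZ, 4 of 6 were lower, beside 17.3% of all genes tested, with -1.18 ± 0.23 for FGFR1 (adjusted p = 0.00266, limma), -1.75 ± 0.14 for FGFR2 (adjusted p = 1.02e-05, limma) and -2.00 ± 0.34 for FGFR3 (adjusted p = 0.00138, limma). These comparisons share libraries, so their values stand side by side and are not independent of each other.

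The VZ libraries also carried transcripts of the neighbouring choroid plexus. TTR, the transthyretin made by choroid plexus epithelium, measured 529, 2514 and 33.8 scaled FPKM in VZ 1, VZ 2 and VZ 3, against 0.0217 to 3.26 in CP. The choroid plexus list (4 of 5 markers found) summed to 0.0950 to 3.73 in CP, 1.02 to 6.29 in OSVZ, 0.772 to 51.3 in ISVZ and 37.0 to 2664 in VZ, and the list of motile cilia to 0.244 to 0.404 in CP, 0.612 to 1.61 in OSVZ, 1.33 to 2.28 in ISVZ and 16.2 to 70.2 in VZ. FGFR3 was ordered over the VZ libraries as TTR was, and FGFR1 and FGFR2 were not. Without VZ 1 and VZ 2, which leaves 1 VZ library that is assumed to vary like the other layers, the CP differences were -1.56 for FGFR1, -2.69 for FGFR2 and -2.71 for FGFR3, and all 3 kept an adjusted p below 0.05. In OSVZ against VZ, FGFR2 then kept its call at -2.10 (adjusted p = 0.00788, limma), while FGFR1 (-1.17, adjusted p = 0.0602) and FGFR3 (-1.55, adjusted p = 0.0706) did not. In ISVZ against VZ, FGFR2 kept its call at -1.40 (adjusted p = 0.0443, limma), while FGFR1 (-1.21, adjusted p = 0.130) and FGFR3 (-0.99, adjusted p = 0.390) did not.

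**Figure D2:**
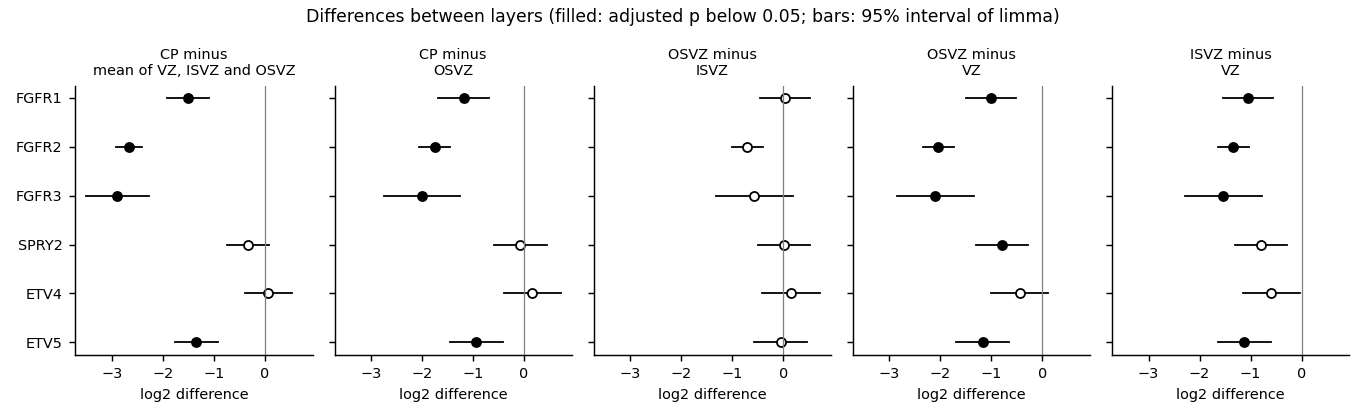
Log2 differences of the 6 tested members in 5 comparisons, in log2(scaled FPKM + 1), with 95% intervals of limma as bars and filled points where the adjusted p is below 0.05. The receptors and ETV5 lie left of 0 in the comparisons of CP with the progenitor layers, of CP with OSVZ, and of OSVZ and ISVZ with VZ, and no member is filled in OSVZ minus ISVZ.

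The make-up of the receptor sum differed between layers. The summed level of FGFR1 to FGFR4 was 4.09, 4.85 and 4.95 scaled FPKM in the CP libraries, 19.6, 20.5 and 18.8 in OSVZ, 37.5, 21.2 and 25.3 in ISVZ, and 69.0, 83.0 and 66.9 in VZ. FGFR1 held 57.5 ± 5.196% of that sum in CP, 37.9 ± 9.11% in OSVZ, 26.2 ± 5.14% in ISVZ and 21.8 ± 4.02% in VZ (SD, n = 3 each). FGFR3 held 12.2 ± 7.65% in CP, 26.3 ± 4.79% in OSVZ, 30.4 ± 10.1% in ISVZ and 35.4 ± 8.78% in VZ. FGFR4 held at most 3.53% in any library and did not pass the filter.

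Within each library, FGFR2 minus FGFR1 averaged -0.66 in CP, -0.10 in OSVZ, 0.65 in ISVZ and 0.94 in VZ on the log2(scaled FPKM + 1) scale, and the layers differed (exact permutation test of F over all 15400 distinct partitions of the libraries into 4 groups of 3, p = 5.195e-04, Benjamini-Hochberg over 5 ratios 0.00260). FGFR3 minus FGFR1 averaged -1.26, -0.44, 0.16 and 0.65 in the same order of layers (exact permutation p = 0.0219, adjusted 0.0274), but this was lost without CP 2, CP 3, VZ 1 or VZ 2, with adjusted values up to 0.0887. For FGFR3 minus FGFR2 the means were -0.60 in CP, -0.35 in OSVZ, -0.49 in ISVZ and -0.29 in VZ, and no difference between layers was detected (exact permutation p = 0.846). FGFR3 lay below the added 1 in every CP library, so its CP differences are understated on this scale. With a pseudocount of 0.1 the adjusted p of FGFR3 minus FGFR2 was 0.375 (exact permutation). In CP, FGFR1 was above FGFR2 in 3 of 3 libraries, and in VZ below it in 3 of 3.

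**Figure D3:**
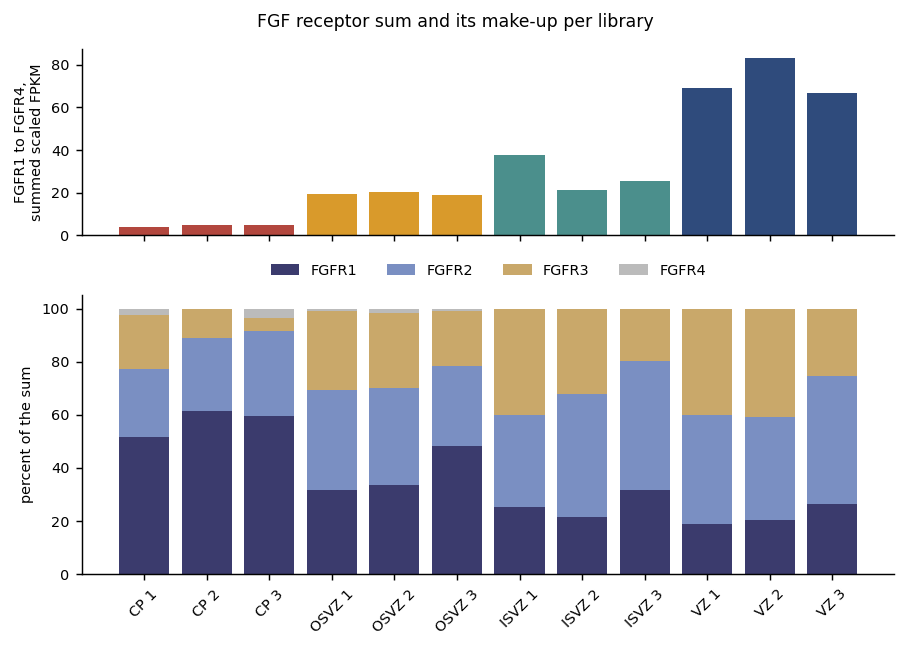
Summed scaled FPKM of FGFR1 to FGFR4 per library (upper panel, linear axis from 0) and the percent of that sum held by each receptor (lower panel), by layer from CP to VZ. The FGFR1 share is 51.6% to 61.3% in the CP libraries and 18.8% to 26.4% in the VZ libraries, while the sum is 4.09 to 4.95 in CP and 66.9 to 83.0 in VZ.

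FGFRL1, a receptor relative that lacks the kinase domain, was the other receptor of its list to pass the filter. It measured 0.321, 0.396 and 0.258 scaled FPKM in the CP libraries, 2.46, 2.17 and 2.51 in OSVZ, 4.52, 2.06 and 3.66 in ISVZ, and 5.71, 8.59 and 9.53 in VZ. The CP libraries were below all others, with a log2 difference of -1.93 ± 0.18 (adjusted p = 5.47e-06, limma). FGFR4 and the Klotho co-receptors KL and KLB stayed below 1 in every library.

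Of the Sprouty inhibitors, SPRY2 was highest in VZ and did not pass the test in CP, and SPRY4 was low in every layer. SPRY2 (TSDBGID.25952, chromosome 9, 81493563 to 81526272) measured 2.69, 2.34 and 5.42 scaled FPKM in the CP libraries, 3.86, 3.54 and 3.13 in OSVZ, 4.63, 2.68 and 3.32 in ISVZ, and 6.31, 6.14 and 7.97 in VZ. The VZ libraries were above all others, and the remaining layers overlapped, with CP 3 above the rest of them. The moderated F test over the 4 layers called 5 of the 6 members, beside 51.8% of all genes. SPRY2 was among them (adjusted p = 0.0234, limma) and lost the call without any 1 of the VZ libraries (0.0536 to 0.112).

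SPRY2 was lower in OSVZ than in VZ by -0.79 ± 0.23 on the log2 scale (adjusted p = 0.0268, limma), a call that was lost in 6 of 23 alternatives, among them without OSVZ 2 (0.0602), OSVZ 3 (0.0785), VZ 2 (0.0536) or VZ 3 (0.0938). In ISVZ against VZ the difference was -0.80 (95% interval -1.31 to -0.28, adjusted p = 0.0591, limma). In CP against the mean of the progenitor layers it was -0.33 (95% interval -0.75 to 0.09, adjusted p = 0.171, limma), and without CP 3 it was -0.62 and passed (adjusted p = 0.00870). Against OSVZ, CP differed by -0.07 (95% interval -0.58 to 0.44, adjusted p = 0.850, limma).

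SPRY4 (TSDBGID.12511, chromosome 19, 28963159 to 28975190) measured 0.918, 0.732 and 1.36 scaled FPKM in the CP libraries, 0.882, 0.650 and 0.908 in OSVZ, 0.528, 0.127 and 0.268 in ISVZ, and 0.833, 1.01 and 0.458 in VZ. It reached 1 in 2 libraries, and its deposited bounds were 28.0% to 98.6% of the value on either side, so these levels are weakly measured. The ISVZ libraries were below the CP and OSVZ libraries and overlapped VZ. The layers differed by an exact permutation test of F (p = 0.0353), which rose as high as 0.123 when single libraries were left out and lost the threshold in 7 of 12 such cases. SPRY4 minus SPRY2 averaged -1.11 in CP, -1.31 in OSVZ, -1.79 in ISVZ and -2.15 in VZ on the log2(scaled FPKM + 1) scale (exact permutation p = 0.00240, adjusted over 5 ratios 0.00400). SPRY4 lay near or below the added 1, so this difference leans on SPRY2 and need not give the order of the plain ratios. In scaled FPKM, SPRY4 averaged 0.308 in ISVZ and 0.769 in VZ, and SPRY2 3.54 and 6.81.

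The 2 ETS factors differed from each other. ETV5 (TSDBGID.4197, chromosome 1, 5850714 to 5939663) measured 2.05, 1.03 and 2.76 scaled FPKM in the CP libraries, 3.33, 5.22 and 5.07 in OSVZ, 5.83, 3.64 and 4.69 in ISVZ, and 9.80, 11.1 and 13.3 in VZ. As with FGFR1, the CP libraries were below and the VZ libraries above all others, and OSVZ and ISVZ overlapped. Its log2 difference was -1.34 ± 0.19 in CP against the progenitor layers (adjusted p = 1.45e-04, limma), -1.17 ± 0.24 in OSVZ against VZ (adjusted p = 0.00391) and -0.94 ± 0.24 in CP against OSVZ (adjusted p = 0.0115). In ISVZ against VZ it was -1.12 ± 0.24 (adjusted p = 0.0143, limma), a call lost without ISVZ 2 (0.0680), VZ 2 (0.0595) or VZ 3 (0.0633).

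ETV4 (TSDBGID.9798, chromosome 16, 63695637 to 63718148) measured 2.07, 2.97 and 5.07 scaled FPKM in the CP libraries, 2.10, 3.70 and 2.59 in OSVZ, 3.24, 2.39 and 1.66 in ISVZ, and 3.84, 4.87 and 3.63 in VZ. CP 3 was the highest library of all 12, and the layers overlapped except ISVZ and VZ. No comparison passed for ETV4, and the F test gave an adjusted p of 0.237 (limma). The difference of CP from the progenitor layers was 0.07 (95% interval -0.39 to 0.53). The span of ETV4 shares 63.8% of its length with DHX8, which averaged 7.77 scaled FPKM in CP and 11.8 in VZ, so its reads may have been divided.

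ETV4 minus ETV5 averaged 0.55 in CP, -0.55 in OSVZ, -0.75 in ISVZ and -1.27 in VZ on the log2(scaled FPKM + 1) scale, and the layers differed (exact permutation p = 0.00110, adjusted over 5 ratios 0.00276). ETV4 was above ETV5 in 3 of 3 CP libraries and below it in 9 of 9 progenitor-layer libraries. In CP 1, however, they were nearly equal, at 2.07 and 2.05 scaled FPKM with overlapping deposited bounds, a log2 difference of 0.0061. ETV1, the third factor of this subfamily, was listed among the ERK-responsive genes. It averaged 24.0 ± 10.03 scaled FPKM in CP, 12.4 ± 3.94 in OSVZ, 24.0 ± 8.82 in ISVZ and 27.7 ± 4.13 in VZ (SD, n = 3 each), with CP against the progenitor layers at 0.20 (adjusted p = 0.577, limma).

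**Figure D4:**
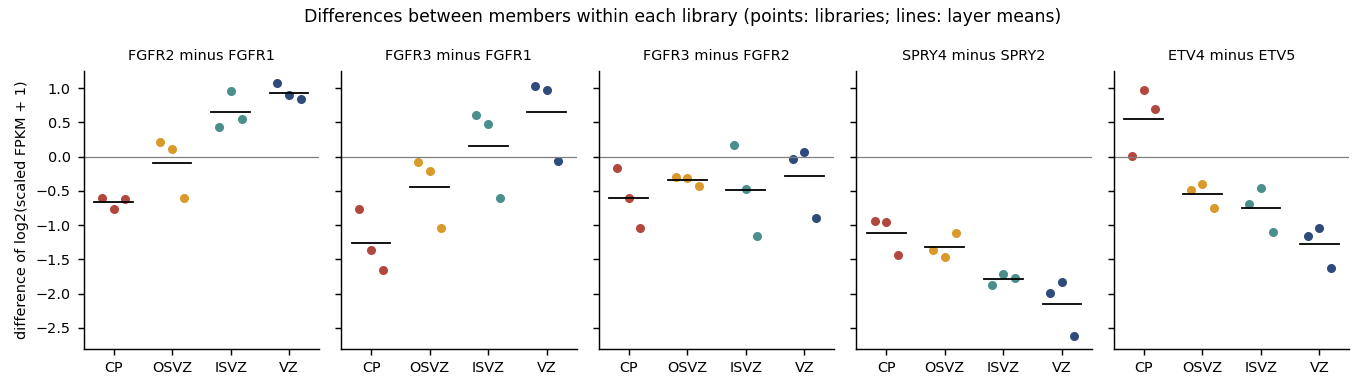
Differences between pairs of members within each library, in log2(scaled FPKM + 1), by layer from CP to VZ. Points are libraries and lines are layer means. FGFR2 minus FGFR1 is below 0 in the 3 CP libraries and above 0 in the 3 VZ libraries, and FGFR3 minus FGFR2 overlaps between the layers. ETV4 minus ETV5 is above 0 in CP alone, though in CP 1 by only 0.0061.

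Most FGF ligands were low. Of 18 listed, 5 passed the filter on low values. In CP against the progenitor layers, 3 of them were higher and 1 was lower, beside 24% and 28.7% of all genes. FGF18 passed the filter through its CP libraries alone, and FGF1 through its VZ libraries alone. FGF9 reached 1 scaled FPKM in its CP libraries and in OSVZ 2 and OSVZ 3 only, so it too needed CP to pass. The filter itself thus favoured their directions and the separation of FGF18 given below, and the counts are a description. FGF9, a ligand made by neurons and glia, measured 2.50, 2.15 and 7.13 scaled FPKM in the CP libraries, 0.510, 1.05 and 3.79 in OSVZ, 0.313, 0.231 and 0.596 in ISVZ, and 0.164, 0.0733 and 0.369 in VZ. CP overlapped OSVZ through OSVZ 3 and lay above ISVZ and VZ, with a log2 difference of 1.49 ± 0.34 (adjusted p = 0.00346, limma).

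FGF18, a ligand of the FGF8 subfamily, measured 1.98, 1.501 and 2.08 scaled FPKM in the CP libraries against 0.262 to 0.748 in the others, with no overlap, and differed by 0.99 ± 0.14 (adjusted p = 1.11e-04, limma). FGF22, a synaptic organiser in mouse, differed by 0.56 ± 0.20 (adjusted p = 0.0359, limma), a call lost in 12 of 22 alternatives. FGF1, which binds all FGF receptors, was lower in CP by -0.94 ± 0.26 (adjusted p = 0.0112, limma). It measured 0.0931, 0.147 and 0.0241 in the CP libraries and 3.88, 5.47 and 1.24 in VZ, in the order of TTR over the VZ libraries, and the part of choroid plexus transcripts was not tested. FGF19 did not pass, at -0.77 (95% interval -1.84 to 0.30, adjusted p = 0.208, and 0.0486 to 0.411 over 19 alternatives, limma), and FGF2, FGF8 and the other ligands lay below the filter.

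Of the 4 intracellular FGF homologous factors, which bind sodium channels rather than FGF receptors, FGF12 was higher in CP by 2.28 ± 0.25 (adjusted p = 1.92e-05, limma). The other 3 did not pass, with FGF11 at -0.77 (adjusted p = 0.0684, and 0.009943 to 0.272 over 23 alternatives, limma) and FGF13 at 0.36. FGF13 also has a named copy, so its value is uncertain.

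Heparan sulfate proteoglycans and the enzymes that build or trim the sulfate chains were called about as often as all genes. Of 20 listed, 18 were tested, 5 were lower and 4 higher in CP, beside 28.7% and 24% of all genes, with a median log2 difference of -0.12 beside -0.05 over all genes tested. SDC2, a syndecan that carries heparan sulfate at the cell surface, measured 1.59, 1.73 and 1.17 scaled FPKM in the CP libraries against 8.38 to 40.0 in the others, and differed by -2.91 ± 0.17 (adjusted p = 2.06e-07, limma). SDC4 was lower by -0.88 ± 0.15 (adjusted p = 6.20e-04, limma). It reached 1 scaled FPKM in VZ libraries only, so the filter itself favoured this direction. HS6ST3, a 6-O-sulfotransferase, was higher by 1.66 ± 0.26 (adjusted p = 2.82e-04) and SULF2, which removes 6-O-sulfate, by 1.36 ± 0.38 (adjusted p = 0.0103, and 0.0716 without CP 3, limma). SDC3 and HS6ST1 were higher by 0.53 and 0.52, calls lost in 10 and 11 of 23 alternatives. GPC4 was listed at 0 in all libraries under its own symbol, while the named copies GPC4li2 and GPC4li3 averaged 3.09 and 1.44 in CP and 32.6 and 22.7 in VZ, so this glypican is uncertain.

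Among adaptors and members of the RAS-ERK cascade, 19 of 21 listed were tested, 2 were lower and 5 higher in CP, beside 28.7% and 24% of all genes, with a median of 0.10. The other 2 were low under their own symbols and have named copies at higher levels, so they are uncertain. GAB1, a docking protein downstream of FGF receptors, was lower by -1.38 ± 0.15 (adjusted p = 2.26e-05, limma) and the phospholipase PLCG1 by -0.87 ± 0.13 (adjusted p = 2.26e-04, limma). HRAS was higher by 1.02 ± 0.15 (adjusted p = 1.52e-04, limma) and the adaptor GRB2 by 0.82 ± 0.08 (adjusted p = 5.88e-06, limma). The GTPase NRAS did not pass, at 0.10.

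Of 9 other feedback inhibitors of ERK signalling listed, 7 were found and tested (SPRY3 and DUSP4 were not analysed here), and 1 was lower and 3 were higher in CP, beside 28.7% and 24% of all genes, with a median of 0.30. DUSP7, a phosphatase that removes phosphate from ERK, measured 12.2, 10.04 and 9.04 scaled FPKM in the CP libraries, 7.38, 6.05 and 7.97 in OSVZ, 5.13, 5.07 and 3.58 in ISVZ, and 3.24, 2.57 and 3.03 in VZ. The CP libraries were above all others, with a difference of 1.02 ± 0.13 (adjusted p = 4.83e-05, limma), and no layer overlapped another. DUSP5 was higher by 0.80 ± 0.17 (adjusted p = 0.00211) and SPRED3, a Sprouty-related inhibitor, by 0.86 ± 0.23 (adjusted p = 0.00821, and 0.0528 without CP 3, limma). SPRED2 was lower by -0.46 ± 0.13 (adjusted p = 0.00961, and 0.0629 without CP 2, limma). SPRED1 and IL17RD did not pass, at 0.30 and -0.01.

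Of 13 other ERK-responsive genes, 8 were tested, 2 were lower and 2 higher, beside 28.7% and 24% of all genes, with a median of 0.07. CCND1, the cyclin that drives entry into S phase, measured 3.18, 2.73 and 2.66 scaled FPKM in the CP libraries, 11.3, 11.9 and 11.9 in OSVZ, 16.0, 9.61 and 15.4 in ISVZ, and 16.0, 14.0 and 18.2 in VZ. It was lower in CP by -1.92 ± 0.14 (adjusted p = 8.17e-07, limma). Markers of dividing cells were lower in CP as well, 5 of 5, with sums of 1.65 to 3.87 in CP, 75.7 to 129 in OSVZ, 136 to 248 in ISVZ and 192 to 222 in VZ. In OSVZ against VZ, 5 of 5 markers were lower, while CCND1 did not pass (-0.42, adjusted p = 0.0841, limma). The part of dividing cells was not tested. FOSL2 was higher by 1.20 ± 0.33 (adjusted p = 0.00979, limma) and JUNB by 0.41 ± 0.13 (adjusted p = 0.0217, limma). With single libraries left out, the JUNB call was lost without CP 2 or CP 3. FOS was lower by -0.50 ± 0.19 (adjusted p = 0.0443, limma, lost in 10 of 22 alternatives). JUNB reached 1 scaled FPKM in the CP libraries and OSVZ 3 only, and FOS in no CP library, so the filter itself favoured these directions. PHLDA1 did not pass, at -0.05.

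Of 16 other receptor tyrosine kinases listed, 13 were tested, 5 were lower and 2 higher in CP, beside 28.7% and 24% of all genes, with a median of -0.28. EGFR was lower by -1.91 ± 0.17 (adjusted p = 3.997e-06, limma), PDGFRB, of mural cells, by -1.53 ± 0.15 (adjusted p = 9.19e-06) and the collagen receptor DDR1 by -1.21 ± 0.11 (adjusted p = 3.78e-06). KIT and the neurotrophin receptor NTRK3 were higher by 1.25 ± 0.22 (adjusted p = 5.57e-04, limma) and 1.14 ± 0.26 (adjusted p = 0.00336). EGFR averaged 0.379 ± 0.147 scaled FPKM in CP, 4.91 ± 1.48 in OSVZ, 3.995 ± 0.766 in ISVZ and 3.89 ± 0.870 in VZ (SD, n = 3 each). Its OSVZ and VZ libraries overlapped, with a difference of 0.26 (adjusted p = 0.393, limma), where those of FGFR1, FGFR2 and FGFR3 did not overlap.

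**Figure D5:**
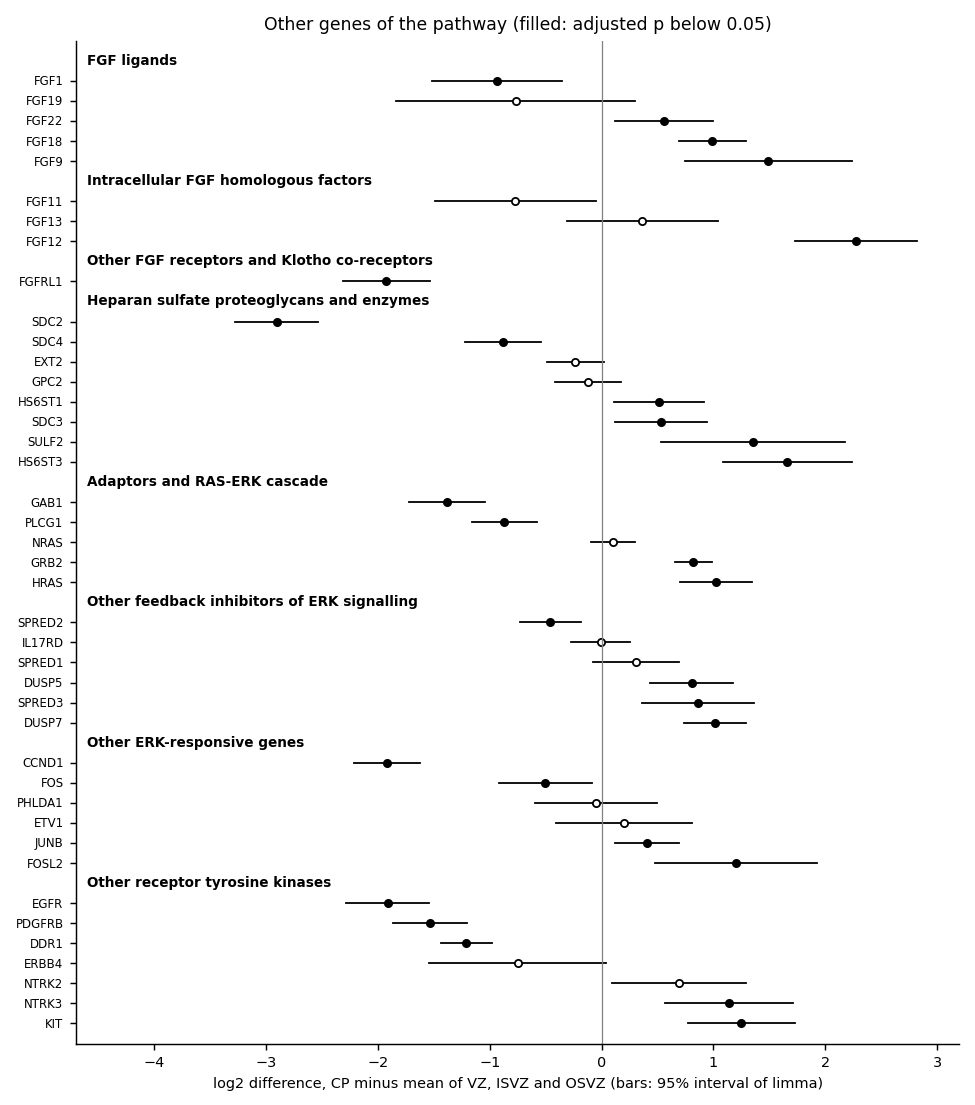
Log2 differences, CP minus the mean of the progenitor layers, of the other pathway genes named, grouped by list, with 95% intervals of limma as bars and filled points where the adjusted p is below 0.05. Ligands FGF9 and FGF18 lie right of 0, FGFRL1, SDC2, GAB1, CCND1 and EGFR left of it, and the feedback inhibitors lie on both sides.

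The genes whose log2 levels followed each member most closely over the 12 libraries are given as a description, since all points share the layers. For FGFR1 they were TTYH1 (Pearson r = 0.985), P2RX4 and MYH14, for FGFR2 SLC39A1 (0.995), TMEM94 and SLC7A2, and for FGFR3 S1PR1 (0.983), GPC4li3 and GPRC5C. TTYH1 averaged 7.67 scaled FPKM in CP and 72.6 in VZ, SLC7A2, a transporter of cationic amino acids, 0.330 in CP and 27.0 in VZ, and S1PR1, a receptor for sphingosine-1-phosphate, 1.69 in CP and 63.4 in VZ. For ETV5 they were CRTC3 (0.982), LRP10 and PLD2li1. The closest profiles of SPRY2 were ELOVL2 (0.957), FSTL1 and ZNRF3, and those of ETV4 were PRADC1 (0.908), SFXN2 and ELOVL5, with lower r than for the receptors.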

How the data were processed

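For each library the authors deposited gene-level FPKM, together with a lower and an upper bound, in Cufflinks layout per the file headers. Cufflinks and HISAT2 appear in the submitters' processing notes. Versions, genome build, annotation and use of strand are not stated there. Coordinates are as in the tables. Entries sharing a gene ID were summed, 4 IDs with a failed status were left out, and each library was scaled by the median of its ratios over 10200 genes, those at 1 FPKM or above throughout (factors 0.947 to 1.06). The test took the 14101 genes that reached 1 scaled FPKM in 3 or more libraries.

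Differences were tested two-sided with limma 3.58.1 in R 4.3.3 (all 12 libraries, layer as the term, empirical Bayes with a trend) on log2(scaled FPKM + 1), with Benjamini-Hochberg adjustment over all genes tested and a threshold of 0.05. The scripts were tested on simulated data. SPRY4 and ratios between members were tested with exact permutations (Python 3.11.15 with NumPy 2.4.6). Of 7 planned ratios 5 were run, since 2 need SPRY1. FPKM holds no counts, so no count model or counting interval was used.

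The members and gene lists were chosen with earlier results of these data known. Genes named are the members and, per list, up to 4 with the largest difference past the threshold in CP, up to 2 that did not pass with the highest level, those that passed against most of their list, the 3 with the highest Pearson r to each member, and the layer check PAX6; some genes the rule names are not reported here. EOMES and MKI67, further layer checks, measured 0.139 to 0.371 and 0.316 to 0.691 scaled FPKM in CP against 31.9 to 74.7 and 14.3 to 46.4 in the progenitor layers. Other marker lists, with members lower and higher in CP, were intermediate progenitors (3 and 0 of 4 tested), oligodendrocyte precursors (4 and 0 of 4), microglia (7 and 0 of 7), endothelium and mural cells (4 and 0 of 6), meninges (0 and 1 of 3) and subpallial progenitors (4 and 0 of 4). The meninges list summed to 14.6 to 20.7 scaled FPKM in CP, 2.21 to 2.84 in OSVZ, 1.425 to 2.16 in ISVZ and 3.47 to 14.5 in VZ. The part of meninges was not tested. TTR and the listed genes below the filter, DHX8, LETM1li1 and the GPC4 copies were named after their values were seen.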

Additional observations from a re-analysis of the deposited data

How the results depend on the processing

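In CP against the progenitor layers, FGFR1, FGFR2, FGFR3 and ETV5 stayed called and lower in 23 of 23 alternatives: pseudocounts of 0.1 and 5, no filter, a filter of 5, FPKM as deposited, quantile normalisation, equal totals, no trend, array weights, the replicate block, each library left out, and VZ 1 and VZ 2 left out together. FGFR2 did so in OSVZ against VZ and in ISVZ against VZ as well. No alternative reversed a called result. Genes called in OSVZ against VZ (3935) were 2558 to 3983 with 1 library left out and 1171 without VZ 1 and VZ 2, where 2 members instead of 5 passed. Genes called in ISVZ against VZ (1229) were 798 with no filter, 715 with a filter of 5, 1895 with array weights, 389 to 1384 with 1 library left out and 71 without VZ 1 and VZ 2, and the 4 members called there were 1 with no filter, 1 to 5 with 1 library left out and 1 without VZ 1 and VZ 2. With no filter, FGFR1 (adjusted p = 0.0562), FGFR3 (0.0692) and ETV5 (0.0520) lost that call, by limma. Quantile normalisation split the ISVZ calls into 795 lower and 370 higher, against 1012 and 217. Genes called in OSVZ against ISVZ (85) were 19 with a pseudocount of 0.1, 8 with no filter, 299 with a filter of 5, 54 with FPKM as deposited, 156 with quantile normalisation, 32 with equal totals, 678 with array weights, 2 to 552 with 1 library left out and 21 without VZ 1 and VZ 2. There 1 member, FGFR2, passed instead of 0 with a filter of 5, quantile normalisation, array weights, or without OSVZ 2 (0 to 1 over the libraries left out). The adjusted p of FGFR3 minus FGFR1 was 0.0766 with a pseudocount of 5 and 0.0123 to 0.0887 with 1 library left out, and the p of SPRY4 was 0.0245 to 0.123. The cause of these shifts was not tested. Some of the alternatives also changed the number of libraries or of genes tested.

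Same-numbered libraries correlated in their deviations from the layer means at 0.0630 to 0.425, above 0.1 in 16 of 18 pairs, and each of the 12 libraries correlated best, among the other layers, with one of its own number. This is a hint from the data that numbers mark a shared source. The labels do not say so and not every pair passed 0.1, so layer stayed the only term. With the replicate block, 206 genes were called in OSVZ against ISVZ, and SPRY2 passed in ISVZ against VZ (adjusted p = 0.0452, limma). In CP against the progenitor layers, FGF11 (adjusted p = 0.009943), FGF19 (0.0486), ERBB4 (0.0183), EXT2 (0.0393), CBL (0.0258) and NTRK2 (0.0277) then passed among the listed pathway genes, by limma. Summing named copies was not run, since no member has one. Relative depth, read from the bounds, was 0.688 in VZ 1 to 1.68 in OSVZ 3, and low members such as SPRY4 are limited by it.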

Other observations

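Of the 6 tested members, 4 were highest in CP 3 among the CP libraries, beside 35.3% of all genes tested, a pattern noticed after the values were seen. They were SPRY2, ETV4, ETV5 and FGFR2, and SPRY4, which was below the filter, was highest there as well. SPRY2 and ETV4, 2 of the 6, reached at least 1.5 times both other CP libraries, beside 5.52% of all genes. Of 15 tested genes in the lists of other feedback inhibitors and ERK-responsive genes, 8 were highest in CP 3, and 2 of them reached 1.5 times. FGF9 was 7.13 scaled FPKM in CP 3 against 2.50 and 2.15 in CP 1 and CP 2. In the same order, FGFR2 was 1.57 against 1.05 and 1.34, and FGFR1 was 2.95 against 2.11 and 2.97. FGFR3 went the other way and was lowest in CP 3, at 0.252 against 0.829 and 0.540. These are values of 1 library, and no cause was tested.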
